A study of Rattus norvegicus with 16 samples.

Results

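The p53 target genes described here are 9 genes that the tumour suppressor p53 is known to switch on: Cdkn1a, Mdm2, Plk2, Ccng1, Bax, Phlda3, Btg2, Fas and Gadd45a. They were chosen by name, and their probes were found through the RefSeq accession that each array spot carries. All 9 genes had at least 1 named probe, 16 probes in all, among 15284 genes named on the array, and all 9 were among the 11849 genes bright enough to be tested. The question behind the choice is whether a nitroaromatic amine leaves a mark of DNA damage in the kidney.

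The samples were outer medulla of the kidney from male Crl:CD Sprague-Dawley rats, aged 5 weeks when dosing began. The treated group received 2-amino-4-nitrophenol (ANP), an amine with a nitro group on its aromatic ring, by gavage at 750 mg/kg/day in corn oil. The vehicle group (VC) received corn oil. At days 1 and 7 each group was 1 one-colour array on RNA mixed from 3 animals, so those 4 arrays carry no spread between animals and allow no test. At days 14 and 28 each group was 3 arrays of 1 animal each. The study holds 1 dose, 1 sex and no group given a known DNA-damaging agent.

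p53 is a transcription factor that is held low in unstressed cells by the ubiquitin ligase Mdm2. DNA breaks, blocked replication and other stresses activate kinases such as Atm and Chek2, which free p53 from Mdm2, and p53 then binds sites near its target genes. The targets halt the cell cycle (Cdkn1a, Btg2, Gadd45a), guard the centrosome cycle (Plk2), limit p53 itself (Mdm2, Ccng1), or lead toward cell death (Bax, Fas, Phlda3). Many of them also answer to other stress pathways. p53 is itself controlled largely at the level of its protein, which these arrays do not measure.

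p53 sites are printed because they are the sequence through which the members share a regulator. Promoters of 8 of the 9 members were found in RefSeq (build GRCr8), as windows of 300 bases from 250 before to 50 after the start of the gene. The p53 consensus half-site was searched on both strands, and a full site was taken as 2 half-sites, 0 to 13 bases apart, with at most 1 mismatch in all. A full site was present in 3 of the 8 windows and in 1% of 33469 promoters of the same length. The best match of each is given 5′ to 3′ on the strand of its gene, with the half-sites in capitals.
Cdkn1a, chr20:7150731-7150750, plus strand, bases -201 to -182: GAACATGTCTTGACTTGTTC
Ccng1, chr10:25685099-25685118, minus strand, bases -242 to -223: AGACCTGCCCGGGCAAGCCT
Gadd45a, chr4:97486838-97486868, minus strand, bases -69 to -39: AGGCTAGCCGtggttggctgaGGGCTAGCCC
By its brightest probe, Ccng1 was the member whose ANP arrays all lay above its VC arrays. The 250 bases before its start are chr10:25684877-25685126 on the minus strand, with the site in capitals.
Ccng1 upstream: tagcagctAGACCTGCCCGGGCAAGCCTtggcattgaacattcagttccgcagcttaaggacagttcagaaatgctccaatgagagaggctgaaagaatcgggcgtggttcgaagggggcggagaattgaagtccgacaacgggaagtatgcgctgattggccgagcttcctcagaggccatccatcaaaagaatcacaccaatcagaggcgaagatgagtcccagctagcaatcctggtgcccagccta
A match describes the letters of the window, and binding was not measured. The windows of Mdm2, Plk2, Phlda3, Btg2 and Fas held no full site. Sites outside the windows were not searched, so these genes may hold sites elsewhere.

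Levels below are log2 of the processed spot signal over the 75th percentile of the same array, so that 0 is the level of a spot at that percentile, and a difference of 1 is a doubling. Levels are not compared between genes, since probes differ in how strongly they bind. On the 16 arrays this percentile was a signal of 809.7 to 1324 units, and 64.75% to 69.6% of probes were well above background. The number of arrays, 3 a group, limits the precision. Markers of the S3 proximal tubule, thick ascending limb and collecting duct, the segments of the outer medulla, were well above background on all 16 arrays, for 5 of 5, 4 of 5 and 5 of 5 markers (the remaining thick limb marker is not analysed here). Their mean log2 level, centred by gene, differed between groups in places. The S3 markers were at 0.13 in the VC pool and -0.89 in the ANP pool of day 1, and overlapped at days 14 and 28. Their day 1 log2 ratios ran from -2.60 (Slc22a7) to 0.29 (Acsm3). Slc22a7 rose by 1.68 at day 28 (limma adjusted p = 0.00475), and no other S3 marker passed. The collecting duct markers were at 0.22 to 0.31 in VC and -0.48 to 0.19 in ANP at day 28, where 2 of the 5 fell (Scnn1g and Atp6v1b1). The thick limb markers were at -0.40 to -0.029 in VC and 0.0042 to 0.095 in ANP at day 28, where none of the 4 passed. Markers of the cortex varied within and between groups. Over 5 glomerular markers the same mean was -0.87 to 0.20 in VC and -1.38 to -0.76 in ANP at day 14. It was 0.76 to 1.18 in VC and 0.05 to 0.33 in ANP at day 28. The ranges overlapped at day 14, where none of the 5 passed, and not at day 28, where Podxl fell (-0.77, limma adjusted p = 0.00734) and Synpo was at 0.20 (limma adjusted p = 0.287). The part of any of these markers in the results below was not tested. The 4 pools lay on 1 slide. At day 14 all VC arrays and ANP replicate 1 shared a slide, and ANP replicates 2 and 3 lay on another. Treatment and slide can thus be told apart at day 14 only through that 1 animal. The slide of ANP replicates 2 and 3 also held all VC arrays of day 28, and all ANP arrays of day 28 lay on a further slide. Slide and treatment cannot be told apart at day 28, and the mean of both days shares these limits. The VC groups of days 14 and 28 lay on different slides, so slide and day cannot be told apart between them.

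After 1 day, 8 of the 9 members were higher in the ANP pool than in the VC pool by their brightest probe, and Plk2 and Btg2 by at least 2-fold. At days 14 and 28 none of the 9 passed the test. In the mean of both days, Ccng1 and Phlda3 were higher.

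**Figure D1:**
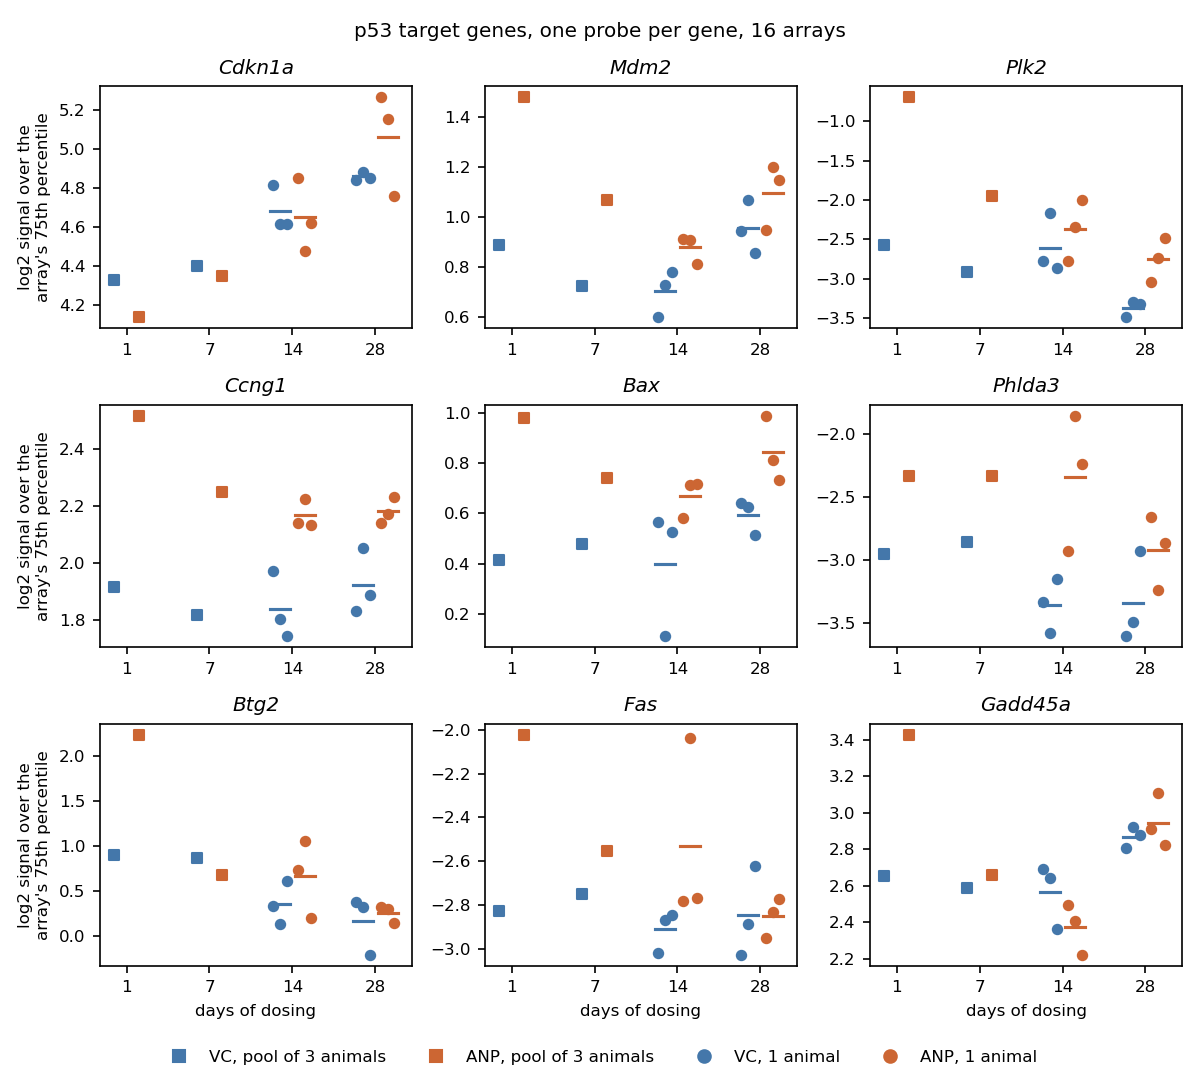
Level of each of the 9 p53 target genes (log2 signal over the array's 75th percentile, vertical axes differ) by days of dosing, with VC in blue and ANP in orange, squares for pools of 3 animals, circles for single animals and bars for group means. By its brightest probe, shown here, Ccng1 is the member whose 8 ANP arrays, from 2.14 to 2.52, all lie above its 8 VC arrays, from 1.74 to 2.05.

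The background for these counts is how often other genes did the same. In the day 1 pools, an increase of at least 2-fold with ANP was seen in 4.83% of 12413 genes, and any increase in 46%. At day 7 such a 2-fold increase was seen in 2.12% of 12122 genes and in none of the 9 members. In limma's test with Benjamini-Hochberg adjustment over 11849 genes, 0.481% of genes passed an adjusted p of 0.05 at day 14, 7.11% at day 28 and 10.2% in the mean of both days. Of the members, 0 of 9 passed at day 14, 0 of 9 at day 28 and 2 of 9 in the mean of both days, where 6.14% of all genes passed as higher. At an unadjusted p under 0.05, 2 of 9 members stood below it at day 14 (13.4% of all genes), 2 at day 28 (26.3%) and 5 in the mean of both days (27.3%). The median log2 ratio of the members was 0.62 at day 1, 0.26 at day 7, 0.27 at day 14 and 0.20 at day 28. The median of all genes at these days was -0.05, 0.04, 0.01 and 0.02. The tissue is a mixture, and on bulk RNA fewer cells of a type and less RNA per cell cannot be told apart.

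**Figure D2:**
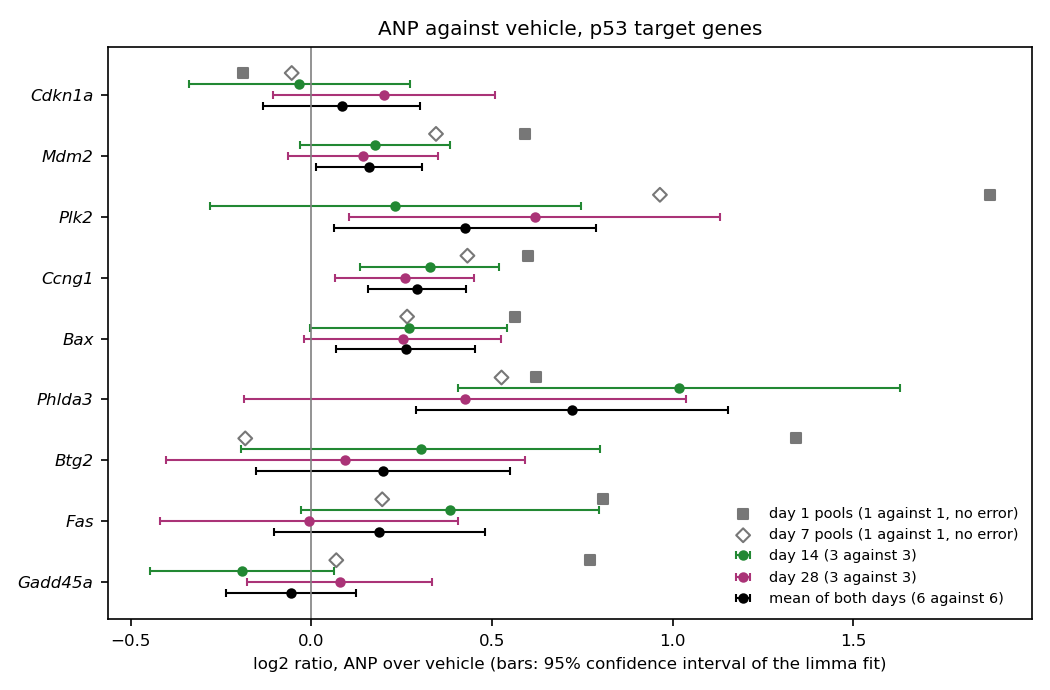
Log2 ratio of ANP over vehicle for each member, with the 95% confidence interval of the limma fit at day 14 (green), day 28 (purple) and in the mean of both days (black); grey marks are the pools of days 1 and 7, which have no error. The day 1 marks of Plk2 (1.88) and Btg2 (1.34) lie farthest to the right, and the black intervals of Mdm2, Plk2, Ccng1, Bax and Phlda3 lie above 0, of which Ccng1 and Phlda3 passed after adjustment over all genes.

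Ccng1 encodes cyclin G1, which brings a phosphatase to Mdm2 and so takes part in the feedback on p53. Its level was 1.92 in the VC pool and 2.52 in the ANP pool of day 1, and 1.82 and 2.25 in those of day 7. At day 14 the VC animals were at 1.97, 1.81 and 1.74 and the ANP animals at 2.14, 2.22 and 2.14. At day 28 the VC animals were at 1.83, 2.05 and 1.89 and the ANP animals at 2.14, 2.17 and 2.23. By the brightest probe of Ccng1, every one of the 8 ANP arrays was thus above every one of the 8 VC arrays. The same held for 1.15% of the 11849 genes by their brightest probes. The log2 ratios were 0.60 and 0.43 in the pools, where all 4 arrays share a slide. They were 0.33 ± 0.09 (SE, n = 3 against 3, limma adjusted p = 0.147) at day 14 and 0.26 ± 0.09 (limma adjusted p = 0.0964) at day 28. Neither day alone passed. The mean of both days rose by 0.29 ± 0.06, or 1.23-fold (n = 6 against 6, limma adjusted p = 0.0174), and the adjusted p lay between 0.0134 and 0.048 when each array was left out in turn. With the replicate number as a block the call was lost, at an adjusted p of 0.0532. Within the 1 slide that held both groups at day 14, the single ANP animal was 0.30 above the mean of 3 VC animals.

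Phlda3 encodes a small protein that competes with the survival kinase Akt for membrane lipids. Its level was -2.95 in the VC pool and -2.33 in the ANP pool of day 1, and -2.86 and -2.33 in those of day 7. The VC animals of day 14 were at -3.34, -3.58 and -3.15 and the ANP animals at -2.93, -1.85 and -2.24, without overlap, as for 10.3% of all genes in this direction. The VC animals of day 28 were at -3.61, -3.50 and -2.93 and the ANP animals at -2.66, -3.24 and -2.86, so that the groups overlapped. The log2 ratio was 0.62 and 0.53 in the pools, 1.02 ± 0.28 (limma adjusted p = 0.153) at day 14 and 0.42 ± 0.28 (limma adjusted p = 0.355) at day 28. The mean of both days rose by 0.72 ± 0.20, or 1.65-fold (limma adjusted p = 0.0431). This call sat at the threshold: it was lost when any 1 of 9 of the 12 arrays was left out, with adjusted p values up to 0.0999. It was kept without ANP replicate 1 of day 14, VC replicate 3 of day 28 or ANP replicate 2 of day 28. On the slide that held both groups at day 14 the ratio was 0.43.

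ANP replicate 2 of day 14 was the highest of that day's animals for Phlda3 (-1.85), Fas (-2.04) and Btg2 (1.06). The same animal had the highest level of tubular injury markers. Over 6 of 6 markers (Havcr1, Lcn2, Spp1, Vim, Krt8 and Krt18), all well above background on the 16 arrays, its centred mean was 1.13. The other ANP animals of day 14 were at -0.02 and 0.28, and the VC animals were at -0.36, -0.35 and 0.05. Its score on 6 macrophage markers, 0.43, was also the highest of the day, next to 0.37 in VC replicate 2. In the day 1 pools the injury score was 2.31 with ANP and -0.26 with VC, and in the day 7 pools 0.41 and -0.17. Havcr1 had the largest log2 ratio of these markers at day 1, 9.63, where the others were at 0.15 to 2.77. At day 7 Havcr1 was at 4.23 and Krt8 at 0.31, and Lcn2, Spp1, Vim and Krt18 were lower with ANP, at -0.34 to -0.12. None of these markers passed at day 14, with Havcr1 at 2.10 (limma adjusted p = 0.135). At day 28 the injury score was -0.54 to -0.33 with ANP and -1.18 to -0.25 with VC. Among the ANP animals of day 14, Phlda3 and the injury score had the same order, but replicates 2 and 3 also lay on another slide than replicate 1. VC replicate 3 had a higher injury score (0.05) than ANP replicate 1 (-0.02) and a lower Phlda3 level (-3.15 against -2.93). In the ANP pool of day 1, with an injury score of 2.31, Phlda3 was at -2.33. The part of the injury markers in the Phlda3 difference was not tested.

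Mdm2 encodes the ligase that marks p53 for breakdown and is itself switched on by p53. Its level was 0.89 in the VC pool and 1.48 in the ANP pool of day 1, and 0.72 and 1.07 in those of day 7. After 14 days the VC animals were at 0.60, 0.73 and 0.78 and the ANP animals at 0.91, 0.91 and 0.81. After 28 days the VC animals were at 0.95, 1.07 and 0.86 and the ANP animals at 0.95, 1.20 and 1.15. The groups did not overlap at day 14, as for 10.3% of all genes in this direction, and overlapped at day 28. The log2 ratio was 0.59 and 0.34 in the pools, 0.18 ± 0.09 (limma adjusted p = 0.454) at day 14 and 0.14 ± 0.09 (limma adjusted p = 0.36) at day 28. The 95% confidence interval in the mean of both days ran from 0.01 to 0.31, with a limma adjusted p of 0.149. A second Mdm2 probe, also well above background on all 16 arrays, gave 1.09 at day 1, 0.54 at day 7, 0.12 at day 14 and 0.02 at day 28. Both probes were higher in the ANP pool at days 1 and 7, and the second one passed 2-fold at day 1.

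Cdkn1a encodes p21, the inhibitor of cyclin-dependent kinases that carries out the p53 arrest. Its probes did not tell 1 story. The brightest probe, A_64_P123895, which stands for the gene in the counts above, was at 4.33 in the VC pool and 4.14 in the ANP pool of day 1, and at 4.401 and 4.346 in those of day 7. At day 14 the VC animals were at 4.81, 4.62 and 4.61 and the ANP animals at 4.85, 4.47 and 4.62. At day 28 the VC animals were at 4.84, 4.88 and 4.85 and the ANP animals at 5.27, 5.16 and 4.76. This probe showed no difference that passed: -0.03 ± 0.14 (limma adjusted p = 0.949) at day 14 and 0.20 ± 0.14 (limma adjusted p = 0.384) at day 28.

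A second Cdkn1a probe, A_44_P914438, was well above background on all 16 arrays too. It was at 0.96 in the VC pool and 2.79 in the ANP pool of day 1, 3.55-fold higher, and at 0.51 and 0.56 at day 7. The VC animals of day 14 were at -0.56, -1.04 and -0.20 and the ANP animals at 0.21, 0.47 and -0.16, without overlap. By their brightest probes, 10.3% of all genes did not overlap in this direction at day 14. The VC animals of day 28 were at 0.27, -0.09 and -0.63 and the ANP animals at -0.30, -0.12 and -0.06. By this probe the day 14 difference was 0.77 ± 0.26 and the day 28 difference -0.01 ± 0.26, with limma adjusted p = 0.243 and 0.989 in a fit of 20571 named probes. The remaining probe, A_44_P515275, was well above background on 2 arrays only. It was at -5.80 in the VC pool and -2.87 in the ANP pool of day 1, and without overlap at day 14 (-7.08 to -6.44 in VC, -5.91 to -5.39 in ANP).

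**Figure D3:**
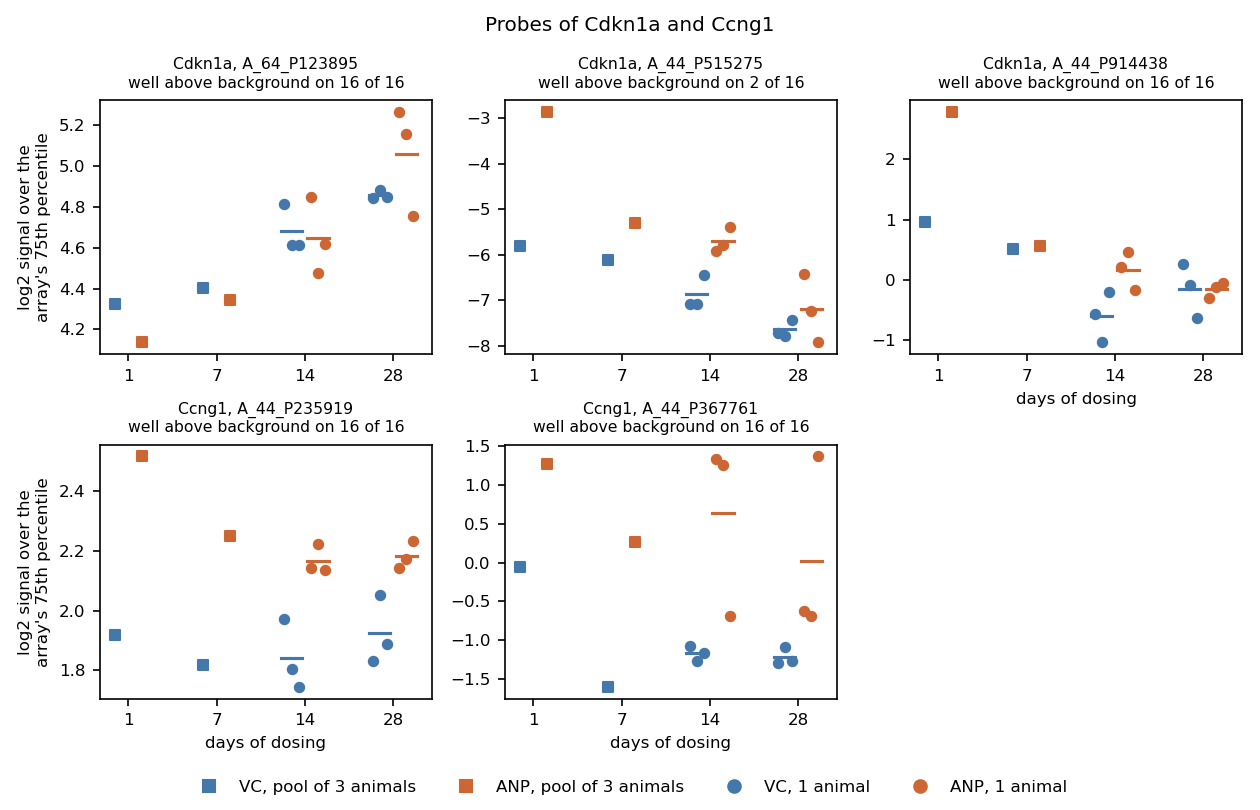
Level of each probe of Cdkn1a (top row) and Ccng1 (bottom row) by days of dosing, as log2 signal over the array's 75th percentile with its own vertical axis, VC in blue and ANP in orange, squares for pools and circles for single animals. At day 1 Cdkn1a probes A_44_P914438 and A_44_P515275 are higher in the ANP pool while A_64_P123895 is lower, and the second Ccng1 probe falls on separate levels among the ANP animals.

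Over the 16 arrays the brightest Cdkn1a probe correlated with its fellow probes at r = -0.68 and -0.65, while those correlated with each other at r = 0.79. The genes most like it over the 16 arrays were Scaf1 (r = 0.98), Tac4 (r = 0.97) and Ptms (r = 0.97). The genes most like Mdm2 were Golga3, Xpo1 and Utp18, each at r = 0.91. These correlations share arrays, groups and slides, and are a description. The array files give no probe sequences, so which part of the Cdkn1a transcript each probe reads was not analysed here. With the mean of its 3 probes Cdkn1a stood at 0.42 in the mean of both days, with a limma adjusted p of 0.0377. This call rests on the dim probe, well above background on 2 of 16 arrays: with the mean of the other probes, a setting chosen after the values were seen, it was 0.23 with a limma adjusted p of 0.165. The count of members at least 2-fold higher at day 1 depends on this choice. It was 2 with the brightest probe of each gene. With the other probe that was well above background on all arrays for Cdkn1a, Mdm2, Ccng1 and Btg2, it was 5, a choice made after the values were seen.

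Ccng1 had a second probe as well, A_44_P367761, well above background on all 16 arrays. It was at -0.06 in the VC pool and 1.27 in the ANP pool of day 1, and at -1.60 and 0.27 at day 7. After 14 days the VC animals were at -1.07, -1.26 and -1.17 and the ANP animals at 1.33, 1.26 and -0.69. After 28 days the VC animals were at -1.29, -1.09 and -1.26 and the ANP animals at -0.63, -0.69 and 1.37. The ANP animals were above all VC animals of their day at both days, as were 10.3% of all genes by their brightest probes at day 14 and 18.6% at day 28. They fell on separate levels, with 3 animals at 1.26 to 1.37 and 3 at -0.69 to -0.63. Over all days together the ANP and VC arrays overlapped by this probe. The VC pool of day 1 (-0.06) lay above the 3 ANP animals at -0.69 to -0.63. The mean of both days by this probe was 1.52 ± 0.42 (limma adjusted p = 0.0494 among 20571 probes), against 0.29 ± 0.06 by the brighter probe. Both probes put Ccng1 higher with ANP at each of the 4 days, and they differ in by how much.

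Plk2 encodes polo-like kinase 2, a stress-induced kinase of the centrosome. It had the widest day 1 ratio among the brightest probes of the members. Its level was -2.57 in the VC pool and -0.69 in the ANP pool, 3.68-fold higher. At day 7 the pools were at -2.92 and -1.95, 1.95-fold apart. At day 14 the VC animals were at -2.78, -2.17 and -2.87 and the ANP animals at -2.78, -2.35 and -2.00, so that the groups overlapped. At day 28 the VC animals were at -3.49, -3.30 and -3.33 and the ANP animals at -3.04, -2.74 and -2.48, without overlap, as for 18.6% of all genes in this direction. The log2 ratio was 0.23 ± 0.23 (limma adjusted p = 0.736) at day 14 and 0.62 ± 0.23 (limma adjusted p = 0.126) at day 28. Plk2 also differed between the vehicle groups, by -0.77 ± 0.23 at day 28 against day 14 (limma adjusted p = 0.0591), more than it differed between ANP and vehicle at either day. Those vehicle groups lay on different slides. On the slide that held both groups at day 14 its ratio was -0.17, of the opposite sign.

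Bax encodes the protein that opens the mitochondrial outer membrane in apoptosis. Its level was 0.42 in the VC pool and 0.98 in the ANP pool of day 1, and 0.48 and 0.74 in those of day 7. VC animals of day 14 were at 0.56, 0.11 and 0.52 and the ANP animals at 0.58, 0.71 and 0.72. VC animals of day 28 were at 0.64, 0.62 and 0.51 and the ANP animals at 0.99, 0.81 and 0.73. The groups did not overlap at day 14, as for 10.3% of all genes in this direction, nor at day 28, as for 18.6%, and neither day passed the test. The log2 ratio was 0.56 and 0.26 in the pools, 0.27 ± 0.12 (limma adjusted p = 0.377) at day 14 and 0.25 ± 0.12 (limma adjusted p = 0.221) at day 28. The mean of both days was 0.26 ± 0.09, with a limma adjusted p of 0.0836 and a 95% confidence interval of 0.07 to 0.45.

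Fas encodes the death receptor that binds Fas ligand. Its level was -2.83 in the VC pool and -2.02 in the ANP pool of day 1, 1.75-fold higher, and -2.75 and -2.55 in those of day 7. After 14 days the VC animals were at -3.02, -2.87 and -2.85 and the ANP animals at -2.78, -2.04 and -2.77. After 28 days the VC animals were at -3.03, -2.89 and -2.62 and the ANP animals at -2.95, -2.83 and -2.77. Fas did not overlap between the groups at day 14, as for 10.3% of all genes in this direction, and overlapped at day 28. The day 14 difference, 0.38 ± 0.19 (limma adjusted p = 0.41), was carried mostly by replicate 2, and the day 28 difference was -0.01 ± 0.19 (limma adjusted p = 0.985). Its other probes were dim, well above background on 9 and 6 of the 16 arrays.

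Btg2 and Gadd45a slow the cell cycle and are also induced quickly by stress and growth signals. Btg2 was at 0.90 in the VC pool and 2.24 in the ANP pool of day 1, 2.53-fold higher, and at 0.86 and 0.68 in those of day 7. At day 14 the VC animals were at 0.33, 0.13 and 0.61 and the ANP animals at 0.73, 1.06 and 0.19. At day 28 the VC animals were at 0.38, 0.32 and -0.21 and the ANP animals at 0.32, 0.30 and 0.14. The groups overlapped at both days, with log2 ratios of 0.30 ± 0.22 (limma adjusted p = 0.623) and 0.09 ± 0.22 (limma adjusted p = 0.829). The second Btg2 probe followed the first closely (r = 0.998 over 16 arrays) and was 2.34-fold higher in the ANP pool of day 1. Btg2 was thus high in 1 pool, of day 1, and within or near the VC range afterwards.

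Gadd45a encodes a protein of growth arrest and DNA repair. It was at 2.66 in the VC pool and 3.43 in the ANP pool of day 1, 1.71-fold higher, and at 2.59 and 2.66 in those of day 7. VC animals of day 14 were at 2.69, 2.64 and 2.36 and the ANP animals at 2.50, 2.41 and 2.22. VC animals of day 28 were at 2.81, 2.92 and 2.88 and the ANP animals at 2.91, 3.11 and 2.82. The groups overlapped at both days, and the log2 ratios were -0.19 ± 0.12 (limma adjusted p = 0.525) and 0.08 ± 0.12 (limma adjusted p = 0.708). Gadd45a was the only member below 0 in the mean of both days by its brightest probe, at -0.06 ± 0.08 (limma adjusted p = 0.69).

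The effect of ANP did not differ between day 28 and day 14 for any member past the threshold: by limma, 0 of 9 members and 0 of 11849 genes passed, with 0 members and 9.27% of genes at an unadjusted p under 0.05. The largest such difference was that of Phlda3, at -0.59 ± 0.39, smaller at day 28 than at day 14 (limma adjusted p = 0.665). Between the vehicle groups of days 14 and 28, which lay on different slides, 11.2% of genes passed and 0 of 9 members did. Days 1 and 7 could not be tested against the later days, so the larger ratios at day 1 stand as values of 1 pool a group.

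The genes around the members were read from lists that name the rest of the pathway. Of 28 other p53 targets 20 were measured. At day 1, 4 of the 20 were at least 2-fold higher in the ANP pool, where 4.83% of all genes were. They were Gdf15, a stress-induced cytokine (log2 ratio 3.38), Ephx1, an epoxide hydrolase (2.13), Ier5 (1.82) and Tigar, a regulator of sugar breakdown (1.11). Ephx1 (1.94) and Gdf15 (1.63) were at least 2-fold higher at day 7 too, where 2.12% of all genes were. None of the 20 passed at day 14 by limma. At day 28, where 7.11% of all genes passed, 1 of the 20 did: Gdf15 rose by 0.81 ± 0.18 (limma adjusted p = 0.0287), and Ephx1 was at 1.36 ± 0.38 (limma adjusted p = 0.0548). The Gdf15 call was lost when any VC array, ANP replicate 1 or ANP replicate 2 of day 28 was left out, with adjusted p values up to 0.104. In the mean of both days, where 10.2% of all genes passed, 4 of the 20 rose, Gdf15, Ephx1, Cd82 and Bbc3, and Apaf1 fell. When each array was left out in turn, 1 to 5 of the 20 passed, and Gdf15 kept its call in all 12 fits. Apaf1 kept its call in 8, Cd82 in 5 and Ephx1 and Bbc3 in 4 each. The list's median was 0.24 at day 1 and -0.03 at day 28, where 12 of the 20 were below 0. Gdf15 is also driven by the integrated stress response, and Ephx1 is a classic gene of the xenobiotic response.

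Of 13 regulators of p53 and damage kinases 10 were measured. None passed at day 14, 1 of 10 passed at day 28 and 2 of 10 in the mean of both days, against 7.11% and 10.2% of all genes, and none was 2-fold changed in the pools. Mdm4, the partner of Mdm2 that blocks p53, was at a log2 ratio of 0.12 in the day 1 pools, -0.03 at day 7, -0.02 ± 0.14 at day 14 and -0.19 ± 0.14 at day 28 (limma adjusted p = 0.966 and 0.414). At day 28 Rchy1, a ubiquitin ligase for p53, rose by 0.50 ± 0.09 (limma adjusted p = 0.0123), a call lost without VC replicate 1 (0.0528) or VC replicate 2 (0.057) of day 28. Chek1, a kinase of the replication checkpoint, rose in the mean of both days by 0.71 ± 0.15 (limma adjusted p = 0.0199), as did Rchy1 (0.34 ± 0.06, limma adjusted p = 0.0101). Without VC replicate 1 of day 28 the adjusted p of Chek1 was 0.0513.

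Paralogs and partners of the members, all 15 measured, give a comparison within families. At day 1, 4 were at least 2-fold higher, where 4.83% of all genes were: Phlda1 (1.89), Plk3 (1.54), Btg3 (1.16) and Gadd45b (1.14). These genes belong to the families of Phlda3, Plk2, Btg2 and Gadd45a. None of the 15 was 2-fold changed at day 7 or passed at day 14. At day 28 Phlda2 rose by 0.92 ± 0.18 (limma adjusted p = 0.02), a call lost without VC replicate 1 (0.0677) or VC replicate 2 (0.0789) of that day.

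Genes of cell division are those that the p21 arrest is known to lower. Of 18 such genes 13 were measured, and none was 2-fold changed in the pools. At day 1, 7 of the 13 were above 0 (median 0.11), where 46% of all genes were. At day 7, 3 of the 13 were above 0 and 10 below (median -0.18), where 56.3% of all genes were above 0. At day 14 all 13 were above 0, with a median of 0.37, where 52.4% of all genes were above 0, and none passed. At day 28 E2f1, the transcription factor of S phase entry, rose by 0.99 ± 0.18 (limma adjusted p = 0.0148) and Birc5, which encodes survivin, by 0.82 ± 0.20 (limma adjusted p = 0.0389), with 12 of 13 above 0, where 53.4% of all genes were. In the pools of days 1 and 7 the log2 ratio of E2f1 was 0.53 and 0.23, and that of Birc5 was -0.79 and 0.46. The Birc5 call sat at the threshold: it was kept in 3 of 12 fits that left out 1 array, those without a VC array of day 14, and reached an adjusted p of 0.113 without VC replicate 1 of day 28. The E2f1 call was lost without VC replicate 1, VC replicate 2 or ANP replicate 2 of day 28, at 0.0532 to 0.0636. In the vehicle groups all 13 were lower at day 28 than at day 14, where 51% of all genes were above 0. Of the 13, 5 fell past the threshold (Ccnb2, Plk1, Bub1, Aurkb and E2f1), as did 4.17% of all genes. The count was 0 to 7 when each array was left out in turn. With slide as a fixed block these 5 calls were lost, at limma adjusted p values of 0.207 to 0.429. The median difference between the vehicle groups, -0.82, was larger in size than the median ratios with ANP, 0.37 and 0.31. The vehicle groups lay on different slides, so day and slide cannot be told apart in it.

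Of 20 DNA repair genes 19 were measured. At day 1, 2 of the 19 were at least 2-fold higher, where 4.83% of all genes were. Among them was Rad18, which starts bypass of damaged bases, at 1.23. None passed at day 14. At day 28 Ogg1, the glycosylase of oxidised guanine, rose by 0.49 ± 0.08 (limma adjusted p = 0.0109). In the mean of both days, where 6.14% of all genes passed as higher, 6 rose, among them Ogg1, Mgmt, Fancd2, Rad18 and Pcna, and Xrcc1 fell. Mgmt, which removes alkyl groups from guanine, rose by 0.56 ± 0.11 (limma adjusted p = 0.0153). Xrcc1 was at -0.21 ± 0.05 (limma adjusted p = 0.0241). When each array was left out in turn, 3 to 6 of the 19 passed in the mean of both days. Mgmt and Ogg1 kept their calls in all 12 fits, and Xrcc1 in 8, with adjusted p values up to 0.0694. Most fits lost the others named: Fancd2 kept its call in 5, Rad18 in 3 and Pcna in 1, with limma adjusted p values up to 0.113.

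Lists of genes of other stress pathways were read beside the members, since several members answer to these pathways too. The lists are not separate from the DNA damage response, to which Atf3, Ddit3 and Ppp1r15a among others are also known to answer. The integrated stress response genes are driven by the transcription factor Atf4 when amino acids or protein folding fail. Of 8 such genes, 5 were at least 2-fold higher at day 1, where 4.83% of all genes were. Among them were Atf3 at 5.67, Trib3 at 3.48 and Ddit3 at 2.49. Asns, the asparagine synthetase, rose by 1.69 ± 0.30 at day 14 (limma adjusted p = 0.0455) and by 3.47 ± 0.30 at day 28 (limma adjusted p = 0.00183). The day 14 call sat at the threshold: it was kept in 3 of 12 fits that left out 1 array, those without VC replicate 1 of day 14, ANP replicate 1 of day 28 or ANP replicate 3 of day 28, and reached an adjusted p of 0.161 without VC replicate 2 of day 14. With slide as a fixed block it was 1.30 (limma adjusted p = 0.648). At day 28 Nupr1 (3.12), Trib3 (2.06), Atf4 (0.79) and Ddit3 (0.68) rose too, 5 of 8 in all, where 7.11% of all genes passed. When each array was left out in turn this count was 2 to 5. Asns and Atf4 kept their day 28 calls in all 12 fits, Nupr1 in 9, Trib3 in 7 and Ddit3 in 3, with adjusted p values up to 0.132 for Ddit3 without ANP replicate 2 of day 28. Of 10 immediate early genes measured, 7 were at least 2-fold higher at day 1, where 4.83% of all genes were. All 10 were above 0, where 46% of all genes were, with Fos at 3.89, Myc at 2.53 and Egr1 at 2.50. None of the 10 passed at day 14 or day 28. At day 1 the lists' medians were 2.10 and 1.47, against 0.62 for the members.

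**Figure D4:**
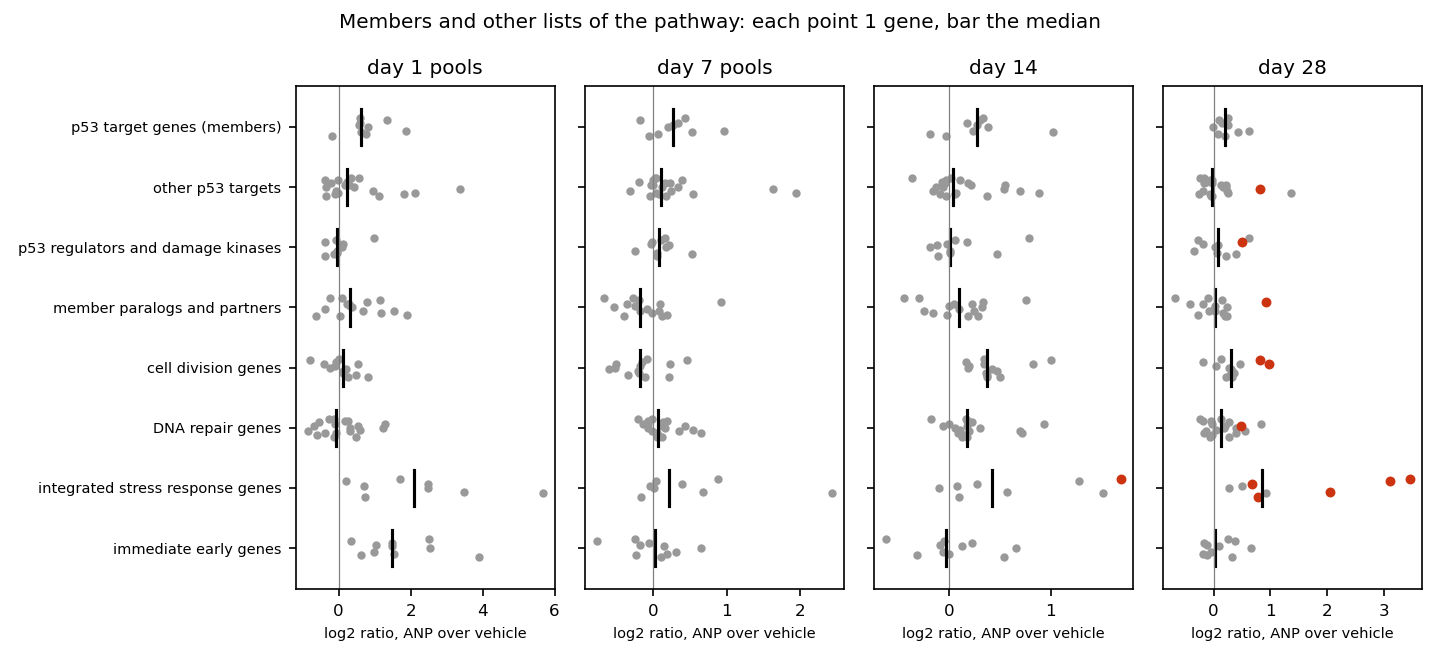
Log2 ratio of ANP over vehicle for each measured gene of the members (top row) and of 7 lists, 1 point a gene, with the median as a bar, in the pools of days 1 and 7 and in the tests of days 14 and 28; horizontal axes differ, and red points passed limma's adjusted p of 0.05. Red points are most frequent among integrated stress response genes at day 28 (5 of 8), and the member row holds none.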

How the data were processed

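Total RNA was labelled with Cy3 and hybridised to one-colour Agilent arrays. Per the submitters' processing notes, spots were read by Agilent Feature Extraction 10.7. Per the file headers, the deposited processed signal intensity is already corrected for background, and spots are marked where they are outliers, saturated or clearly brighter than background. The authors' deposited value table holds a ratio. It matched the processed signal over the array's 75th percentile (r of at least 0.9999 on each array, column medians of 0.099 to 0.108), so its scale is linear and its genes are not centred.

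Each processed intensity was put on the log2 scale, and each array was scaled by its 75th percentile over 61657 non-control probes. Outlier spots (0 to 9 an array) were left out, and none was saturated. RefSeq accessions without version (GRCr8) named 27460 probes, which stand for 15284 genes, and left 34197 unnamed. The probe with the highest mean stood for a gene. A gene was tested if, in 1 or more groups, this probe was marked well above background on every array, which left 11849 genes. limma 3.58.1 in R 4.3.3 (lmFit, eBayes, two-sided) was fitted to the 12 arrays of days 14 and 28, 1 mean a group, with Benjamini-Hochberg adjustment over all genes. In the pools, called means at least 2-fold.

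The text names all members with every probe, Mdm4, of each list up to 4 genes a direction and day that passed and up to 3 in the pools, and for Cdkn1a and Mdm2 the 3 genes most like them. Passing genes of the mean of both days, of the vehicle comparison and further pool genes were named after their values were seen. A few genes that this rule would name are left out of the text. The members and lists were chosen with earlier results of these data known. Alternatives were other normalizations, the value table, filters on dim spots, the mean of probes (all, or those well above background on all arrays), smaller fits, slide and replicate blocks, and each array left out.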

Additional observations from a re-analysis of the deposited data

How the results depend on the processing

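No member passed at day 14 or day 28 under any alternative except slide as a random block (estimated correlation -0.09), where 1 did at day 28, Ccng1 (adjusted p = 0.0451); it also gave 1 member, Plk2, between vehicle groups. In the mean of both days 2 members passed, and 1 without a filter on dim spots (Phlda3 missed at 0.0639), where more genes are tested; the mean of all probes gave 3, with Cdkn1a added, and the mean of probes well above background on all arrays, chosen after seeing the data, gave 2. Leaving out each array gave 1 to 2 members there, 0 to 1 between vehicle groups (Plk2 without ANP replicate 1 of day 14), and 0 elsewhere. At least 2-fold members at day 7 went from 0 to 1 with either mean of probes, and to 1 with the other probe of Cdkn1a, Mdm2, Ccng1 and Btg2, which gave 5 in place of 2 at day 1. The replicate number as a block gave 0 members in the mean of both days (adjusted p of 0.0532 for Ccng1 and 0.0736 for Phlda3), and 7 genes called at day 14, 498 at day 28 and 799 in the mean. Deviations of same-numbered animals correlated at 0.13, 0.07 and 0.14 at day 14 and at -0.07, -0.05 and 0.11 at day 28, so the numbers were not taken as pairs; at day 14 each VC animal correlated best with its own number, at day 28 not all did.

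Over all genes, day 14 gave 57 calls, 119 with normexp and quantile normalization, 28 without a filter, 22 in a fit of the 2 groups, 0 with slide as a fixed block, 133 with slide as a random block, and 1 to 93 without 1 array. The lowest was without ANP replicate 3 of day 14, next to 3 without VC replicate 2 of day 14 and 7 without ANP replicate 2 of day 14. Day 28 gave 842 calls, 431 in a fit of the 2 groups, 1857 with the random block and 211 to 976 without 1 array, and the mean of both days 1206 and 588 to 1148. The vehicle groups gave 1325 calls, 627 in a fit of the 2 groups, 0 with the fixed block, 2202 with the random block and 430 to 1596 without 1 array. The difference between days gave 0 to 2. In the pools 1215 genes were at least 2-fold changed at day 1, 666 with normexp, and 564 at day 7, 192 with normexp, 917 without a filter and 320 with a strict one.

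Signs turned for small values. Fas at day 28 was 0.060 with quantile normalization, 0.054 with median scaling and 0.071 with normexp, and -0.098 to 0.11 without 1 array. Cdkn1a at day 14 was 0.64 with the mean of all probes, 0.37 with that of probes well above background, 0.77 with the other probe, 0.17 with slide fixed and -0.13 to 0.054 without 1 array, and at day 28 -0.0072 with the other probe. Slide fixed gave Plk2 -0.17 and Mdm4 0.034 at day 14, and normexp gave Mdm4 0.0086 at day 28. Without 1 array Mdm4 at day 14 was -0.078 to 0.019, Btg2 at day 28 -0.095 to 0.20 and Gadd45a at day 28 -0.0024 to 0.14. The difference between days became 0.026 for Bax and 0.0091 for Mdm2 with median scaling, 0.16 for Mdm2 with normexp, and -0.42 (mean of all probes), -0.27 (probes well above background) and -0.78 (other probe) for Cdkn1a, and without 1 array it was -0.0998 to 0.13 for Bax and -0.085 to 0.041 for Mdm2. Between vehicle groups Phlda3 was -0.031 with normexp, -0.87 with slide fixed and -0.20 to 0.14 without 1 array, Fas -0.18 with the mean of probes, -0.31 with slide fixed and -0.046 to 0.16 without 1 array, Cdkn1a -0.048 with the mean of probes and Ccng1 -0.045 with the other probe. The causes were not tested beyond the probe chosen and the arrays used. Slide as a fixed block could not be fitted at day 28.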

Other observations

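Red blood cell markers differed between the ANP and VC animals at day 28, where slide and treatment cannot be told apart. Over 3 of 5 erythroid markers measured, the centred mean was -0.998, -0.903 and -0.923 in the VC animals and 0.07, 0.43 and 1.26 in the ANP animals. At day 14 it was -0.84, 0.32 and -0.25 in the VC animals and -0.14, 0.11 and 0.42 in the ANP animals, where the groups overlapped. The pools went the other way, at 0.64 with VC and 0.21 with ANP at day 1, and 0.41 and 0.18 at day 7. The part of the red blood cell markers in the values of the p53 target genes was not tested.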
